A study of Homo sapiens with 11 samples.

Results

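HOX cluster genes encode homeodomain transcription factors that give cells their position along the body axis. The members described here were the protein-coding genes with names of the form HOXA, HOXB, HOXC or HOXD followed by a paralog number. These were 38 of the 58288 genes in the RNA-seq data, with 10 genes in HOXA, 10 in HOXB, 9 in HOXC and 9 in HOXD. In each cluster the genes lie on the same strand in the order of their paralog numbers, and low numbers pattern the head and neck while high numbers pattern the trunk, limbs and urogenital tract. Genes that are not used in a cell type are typically held under H3K27me3 by Polycomb complexes, while used genes carry H3K4me3 and H3K27ac, so a cluster often divides into an active and a repressed stretch. In the kidney, paralogs 9 to 11 are known for their role in the formation and patterning of the metanephros.

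HK2 cells are immortalised human epithelial cells derived from the proximal tubule, the part of the nephron that takes back most of the filtrate. All samples were of these cells under 1 condition, grown at 37 °C and 5% CO2 in DMEM-F12 that held 0.05% DMSO, 10% FBS and 1% penicillin-streptomycin, so comparisons run between genes, clusters and marks and not between treatments. ChIP-seq peak lists of H3K4me3 (promoters), H3K27ac (active promoters and enhancers) and H3K27me3 (Polycomb-repressed chromatin) came from 2 replicates of each mark, of which the list without a number in its label is called replicate 1 here, and RNA-seq of rRNA-depleted RNA came from 2 libraries. The labels do not say that replicates came from separate cultures, so the spread between them may be technical. As an immortalised line in culture, HK2 is a model of the tubule epithelium and not the tubule in place.

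The RNA-seq libraries held 4.54 and 4.42 Gb of aligned bases over annotated transcripts, so that the libraries were of similar depth. The peak lists hold positions without scores or read counts, and the read depth of the ChIP-seq libraries was not used here. The peak lists of the 2 replicates differed in number and width, with 28615 and 73505 H3K4me3 peaks, 57687 and 38554 H3K27ac peaks, and 45858 and 32639 H3K27me3 peaks on the 24 chromosomes. Of 16 tubule and nephron epithelial markers, 8 reached an FPKM (fragments per kilobase of transcript, scaled to the mapped fragments of the library) of 1 in both libraries, with KRT8 at 179 and 184, CDH6 at 112 and 120, and the renal lineage factor PAX8 at 100.2 and 104.1. The proximal tubule markers LRP2 and HNF4A, named here after their values were seen, were listed at 0 in both libraries. None of 7 glomerular and distal nephron markers and 2 of 8 stromal, endothelial and leukocyte markers (CD68 and COL1A1) reached an FPKM of 1 in both.

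Promoter sequences of the genes with the highest FPKM in HOXA and HOXD are shown first, and those of the genes with the widest H3K27me3 cover follow. The FPKM is that of the whole gene and not of the start shown. The HOXD10 start is no contrast to a start with H3K27me3, because it had H3K27me3 peaks within 1 kb in both replicates. Each sequence gives the 200 bases just upstream of the canonical transcription start site (TSS) of GENCODE version 44, 5′ to 3′ on the strand of the gene, read from GRCh37, with CpG dinucleotides in capitals. They lie at chr7:27205157-27205356 on the minus strand and at chr2:176981306-176981505 on the plus strand.
HOXA9: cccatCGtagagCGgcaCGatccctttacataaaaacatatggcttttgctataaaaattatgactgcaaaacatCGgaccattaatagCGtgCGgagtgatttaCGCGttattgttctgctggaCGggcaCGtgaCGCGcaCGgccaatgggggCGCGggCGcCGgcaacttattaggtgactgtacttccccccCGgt
HOXD10: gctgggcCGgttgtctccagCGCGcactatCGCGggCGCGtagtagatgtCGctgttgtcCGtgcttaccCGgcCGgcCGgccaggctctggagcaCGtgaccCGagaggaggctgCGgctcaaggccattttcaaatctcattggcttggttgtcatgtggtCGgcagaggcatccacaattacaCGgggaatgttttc

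The corresponding bases of the genes with the widest H3K27me3 cover at the canonical TSS in the same clusters lie at chr7:27239711-27239910 on the minus strand and at chr2:176957249-176957448 on the plus strand.
HOXA13: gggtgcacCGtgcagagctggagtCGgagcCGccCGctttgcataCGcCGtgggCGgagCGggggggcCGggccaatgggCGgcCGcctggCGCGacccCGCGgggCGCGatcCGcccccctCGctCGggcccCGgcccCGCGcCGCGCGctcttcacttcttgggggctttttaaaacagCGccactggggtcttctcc
HOXD13: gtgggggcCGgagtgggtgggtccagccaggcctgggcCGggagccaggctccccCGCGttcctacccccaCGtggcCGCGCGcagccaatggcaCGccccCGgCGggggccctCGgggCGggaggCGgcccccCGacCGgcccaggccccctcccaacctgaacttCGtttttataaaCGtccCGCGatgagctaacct

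The 200 bases held 18 CpG in HOXA9 and 17 in HOXD10, against 27 in HOXA13 and 20 in HOXD13, while over all members the starts with H3K27ac and those with H3K27me3 had similar medians. Over all 38 members the median was 12 CpG (range 3 to 27), and over the 19546 protein-coding promoters of the same length without an unknown base it was 16. The 9 members with H3K27me3 in both replicates had a median of 14 CpG, the 16 members with H3K27ac in both had 14.5, and the 8 members with no mark in both replicates had 7.5.

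Some short motifs were frequent in the members' promoters. The E-box CACGTG, a palindrome recognised by basic helix-loop-helix factors, stood in the 200 bases of 17 of 38 members (44.7%), against 6.98% of all promoters of that length. The CCAAT box (CCAAT or its complement ATTGG), the recognition element of NF-Y, stood in 27 members (71.1%), against 30.4% of all promoters. A TATA box (TATAAA or TTTATA) stood in 6 members (15.8%), against 7.7% of all. Both strands were searched, no end of the CCAAT box matches the start of the E-box, so that these cannot overlap, and a match does not say that a factor binds. The E-box was present in members with either kind of mark, 7 with H3K27ac (such as HOXA9, HOXB7 and HOXD11) and 6 with H3K27me3 (such as HOXD3, HOXD10 and HOXD13). The motifs were chosen for counting after the sequences had been read.

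Paralogs also shared longer runs in these promoters. HOXA5 and HOXB5 shared an identical run of 19 bases that holds an E-box and starts at -94 and -86 from the TSS. Of 40 pairs of genes with the same paralog number in different clusters, 2 shared a run of at least 15 bases, and of 501 pairs with different numbers 1 did. The latter pair was HOXA3 and HOXB6, with 22 bases, and the canonical start of HOXA3 is an upstream start that lies between HOXA6 and HOXA7 rather than at the body of HOXA3. These runs are shown to mark where the promoters are alike.
HOXA5 and HOXB5: caacaaaagcacgtgattc
HOXA3 and HOXB6: tttatgaaaatttacaactttg

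RNA of HOX cluster genes was present from all 4 clusters and was concentrated in HOXA. In both libraries, 25 of 38 members reached an FPKM of 1 or more (65.8%), against 58.9% of the 19547 protein-coding genes with a canonical TSS. By cluster these were 9 of 10 genes in HOXA, 7 of 10 in HOXB, 4 of 9 in HOXC and 5 of 9 in HOXD. In these bulk libraries, RNA from fewer cells and less RNA per cell cannot be told apart. The median log2(FPKM + 1) of the members was 1.69, against 2.13 over all protein-coding genes, and at an FPKM of at least 5 the members were 12 of 38, against 43.3% of all. Of the FPKM summed over members, which was 334 in library 1 and 321 in library 2, HOXA held 74.6% and 74.0%, HOXB 13.2% and 14.1%, HOXC 5.53% and 4.92%, and HOXD 6.71% and 7.05%. The order of HOXD over HOXC was small but was the same in both libraries.

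**Figure D1:**
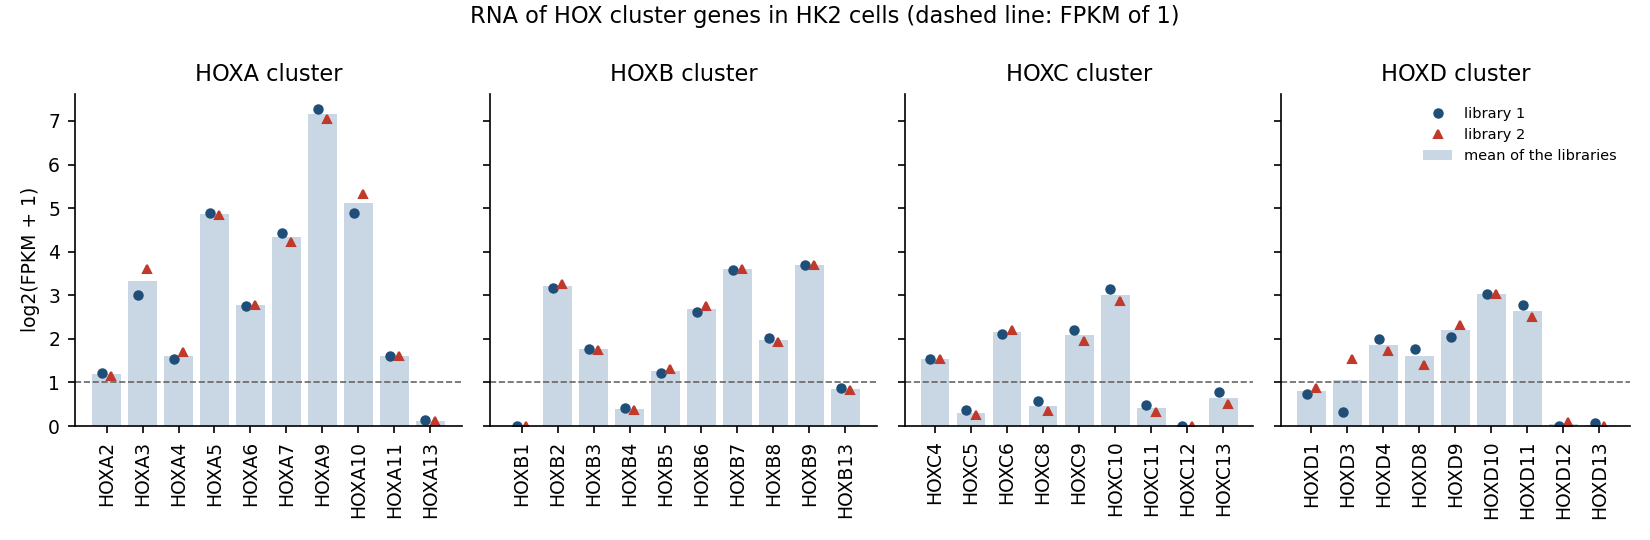
Level of each HOX cluster gene as log2(FPKM + 1) on the y axis, in order of paralog number on the x axis, with 1 panel per cluster, bars for the mean and points for the 2 libraries. HOXA9 is the highest gene, HOXA10, HOXA5 and HOXA7 follow it, and HOXA13, HOXB1, HOXC12, HOXD12 and HOXD13 are at or near 0.

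In HOXA (chr7:27139973-27239710 from HOXA2 to HOXA13), HOXA9 was the highest HOX gene in these cells. HOXA9, a factor of the posterior trunk and of blood progenitors, had an FPKM of 153 and 131 in libraries 1 and 2 (mean 142 ± 15.7, SD, n = 2), which ranked 309 of the 19547 protein-coding genes. HOXA10, best known from the uterus and its embryonic duct, was at 28.8 and 38.8, and HOXA5, a factor of lung and airway formation, at 28.8 and 27.9. HOXA7, a trunk gene, followed at 20.6 and 17.6. The libraries of HOXA9 lay far above those of its neighbours, and HOXA7 lay below HOXA5 and HOXA10 in both libraries, while HOXA5 and HOXA10 overlapped.

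HOXA3, a factor of the pharyngeal arches, thymus and parathyroid, had an FPKM of 7.02 and 11.1. HOXA6, another trunk gene, was at 5.75 and 5.91. HOXA11, required together with its paralogs for outgrowth of the metanephric kidney, was at 2.05 and 2.07. It did not differ from HOXA4, at 1.90 and 2.22, beyond the spread between libraries. HOXA2, a factor of the hindbrain and the second pharyngeal arch, was at 1.33 and 1.23, the lowest value of the cluster above the threshold. HOXA13, a factor of the distal limb and the urogenital outlet, was at 0.0966 and 0.0865.

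In HOXB (chr17:46605888-46806112 from HOXB1 to HOXB13), the genes with paralog numbers 2, 6, 7 and 9 were highest. HOXB9, a thoracic trunk gene, had an FPKM of 11.9 and 12.0 and HOXB7, a trunk gene studied in several carcinomas, 11 and 11.2. HOXB9 was thus above HOXB7 by less than 1 FPKM, although the libraries did not overlap. HOXB2, a hindbrain gene, was at 8.04 and 8.6, and HOXB6 at 5.13 and 5.72. HOXB8 was at 3.08 and 2.80, HOXB3 at 2.42 and 2.35, and HOXB5 at 1.33 and 1.48. The 3 genes below the threshold were HOXB13, a prostate and tail bud gene, at 0.840 and 0.772, HOXB4, a gene of blood stem cells, at 0.328 and 0.292, and HOXB1, a hindbrain gene, listed at 0 in both libraries.

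In HOXC (chr12:54332615-54449814 from HOXC13 to HOXC4), 4 genes passed the threshold. HOXC10, a lumbar gene, had an FPKM of 7.79 and 6.33. HOXC6, a cervical and brachial gene, was at 3.30 and 3.6 and HOXC9, a thoracic gene, at 3.62 and 2.84, and these overlapped. HOXC4, the member with the lowest paralog number of the cluster, was at 1.88 and 1.90. The other 5 stayed under 1 in both libraries, namely HOXC13, a hair and nail gene, at 0.706 and 0.423, HOXC8 at 0.489 and 0.262, HOXC11 at 0.407 and 0.258 and HOXC5 at 0.287 and 0.193, while HOXC12 was listed at 0 in both.

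In HOXD (chr2:176957449-177055635 from HOXD13 to HOXD1), the highest gene was HOXD10, a gene of lumbar motor neurons and limb, with an FPKM of 7.11 and 7.22. HOXD11, a paralog of the kidney gene HOXA11, was at 5.84 and 4.65, and both of its libraries lay below those of HOXD10. HOXD9 was at 3.15 and 4.0, HOXD4 at 2.99 and 2.32, and HOXD8 at 2.39 and 1.65. The ranges of HOXD4 and HOXD8 overlapped, although HOXD4 was above HOXD8 in each library. HOXD1 was at 0.659 and 0.843. HOXD12 was listed at 0 in library 1 and at 0.0682 in library 2, and HOXD13, the gene of the digits, at 0.0471 and 0. HOXD3 was at 0.249 and 1.90, a 7.64-fold difference, the highest fold among members above 0 in both libraries. Where the mean FPKM was 1 or more, the libraries differed by at least 2-fold in 1 of 26 members (HOXD3), against 1.64% of the 11719 protein-coding genes.

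Read by paralog number, the highest levels were those of numbers 9 and 10. All 7 genes of numbers 9 and 10 passed the FPKM threshold, with a median of 7.16 (range 3.23 to 142 over gene means). Of the 15 genes with numbers 4 to 8, 12 passed, with a median of 2.65, and of the 7 genes with numbers 1 to 3, 4 passed, with a median of 1.28. Of the 9 genes with numbers 11 to 13, 2 passed (HOXA11 and HOXD11), with a median of 0.332. H3K27me3 at the canonical TSS in both replicates was found for 6 of these 9, and for 1 gene in each of the other groups. The grouping of paralog numbers was chosen after the values were seen.

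Promoter marks were read as a peak overlapping the window from 1000 bases before to 1000 bases after the canonical TSS, which is 2001 bp wide, in both replicates. H3K4me3 was found at 27 of 38 members (71.1%), against 67.1% of protein-coding genes, with 27 members in replicate 1 (69.0% of genes) and 31 in replicate 2 (73.9% of genes). H3K27ac was found at 16 (42.1%), against 51.0%. H3K27me3 was found at 9 (23.7%), against 9.46%. H3K4me3 together with H3K27me3 was found at 6 members (15.8%), against 5.45%, and H3K27me3 without H3K4me3 at 3 (7.9%), against 4.01%. HOX cluster genes thus had a share of H3K4me3 near that of all genes and a higher share of H3K27me3. Their share of H3K27ac was lower in both replicates together and in replicate 2, with 16 members (42.1%) against 51.1% of genes, but not in replicate 1, with 24 members (63.2%) against 63.5%. All 3 marks in both replicates were found at 0 members, against 0.179% of protein-coding genes.

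Members divided by their marks into groups whose RNA levels differed widely. The 16 members with H3K27ac in both replicates all had H3K4me3 in both as well, and all 16 passed the FPKM threshold, with gene means from 2.02 to 142 and a median of 7.08. They were HOXA3 to HOXA7, HOXA9, HOXA10, HOXA11, HOXB2, HOXB6, HOXB7, HOXB9, HOXC9, HOXD8, HOXD9 and HOXD11. Over all protein-coding genes, 93.0% of those with H3K27ac and 23.5% of those without passed the same threshold. H3K4me3 and H3K27ac in both replicates with H3K27me3 in neither were found at 15 of 38 members (39.5%), against 49.3% of all protein-coding genes. HOXD9 was left out of this count by an H3K27me3 peak in replicate 2.

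The 6 members with H3K4me3 and H3K27me3 in both replicates, a combination known as bivalent, were HOXA13, HOXB4, HOXC11, HOXC13, HOXD3 and HOXD13. None of these passed the FPKM threshold in both libraries, and their gene means ranged from 0.0236 to 1.07. HOXD3 reached it in library 2 alone, at 1.90, of which 1.6 came from a transcript that starts 6770 bp from the canonical TSS. HOXB4 and HOXC11 also had an H3K27ac peak in replicate 1, over 1539 and 460 bp of the window, and none in replicate 2. In HOXA13, HOXB4, HOXC13 and HOXD13 H3K27me3 covered all 2001 bp of the window in both replicates, while in HOXC11 it covered 1329 and 523 bp and in HOXD3 2001 and 1201 bp. H3K27me3 without H3K4me3 in both was found at HOXC12, with 2001 bp covered in each replicate, at HOXD12, with 645 and 851 bp, and at HOXD10, with 1072 and 313 bp. These starts had H3K4me3 in replicate 2 alone, over 273 bp of the window at HOXC12, 703 bp at HOXD12 and 339 bp at HOXD10. HOXC12 and HOXD12 had almost no RNA, whereas HOXD10 had the highest FPKM of its cluster.

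Of the 9 members with H3K27me3 in both replicates, 1 (HOXD10) passed the FPKM threshold, and of the 29 others 24 did. The members with H3K27me3 at an FPKM of at least 1 were thus 1 of 38 (2.6%), against 1.12% of all protein-coding genes. Among protein-coding genes, 11.8% of those with H3K27me3 and 63.9% of those without passed it. At HOXD10 the H3K27me3 peak of replicate 1 covered the TSS itself, and that of replicate 2 started 688 bp downstream of it. The nearest H3K4me3 peak was at 5214 bp in replicate 1 and at 662 bp in replicate 2, and the nearest H3K27ac peaks were at 5599 and 6114 bp. Of its FPKM, 59.8% and 52.3% in libraries 1 and 2 came from the canonical transcript, and the rest from transcripts without a defined coding sequence that start within HOXD11, 7901 and 7988 bp upstream.

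A further 6 members had an H3K27me3 peak in replicate 2 and none in replicate 1, namely HOXB1, HOXB8, HOXB13, HOXD1, HOXD4 and HOXD9, with 180 to 707 bp of the window covered. Of these, HOXB8, HOXD4 and HOXD9 passed the FPKM threshold. With replicate 2 alone the count of members with H3K27me3 was 15, against 10.8% of all protein-coding genes in that replicate, and with replicate 1 alone it was 9, against 11.8%. H3K27ac showed the opposite imbalance between replicates.

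**Figure D2:**
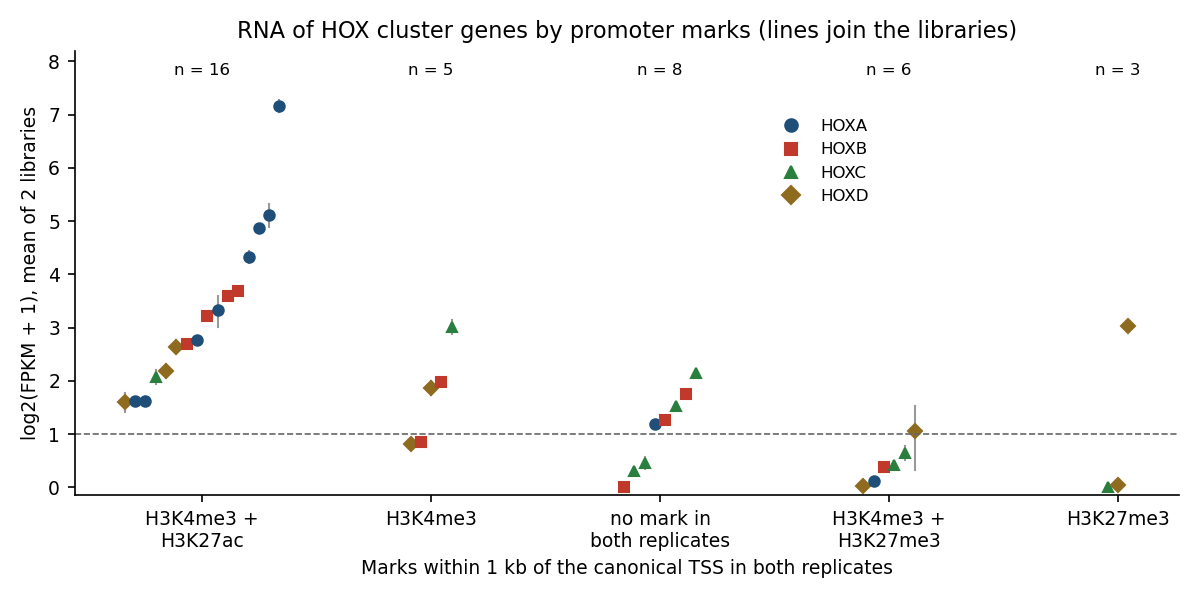
Level of each HOX cluster gene as log2(FPKM + 1), mean of 2 libraries, on the y axis, grouped on the x axis by the marks found within 1 kb of its canonical TSS in both replicates, with grey lines from library to library. All 16 genes with H3K4me3 and H3K27ac lie above an FPKM of 1 (dashed line), and HOXD10 is the gene with H3K27me3 that lies far above it.

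The remaining members carried less. H3K4me3 without either other mark in both replicates was found at HOXC10, HOXB8, HOXD4, HOXB13 and HOXD1, of which the first 3 passed the FPKM threshold. All 5 had H3K27ac in replicate 1 and none in replicate 2, with 1740 bp of the window covered at HOXC10, 1028 at HOXD4, 975 at HOXD1, 794 at HOXB8 and 669 at HOXB13. The nearest H3K27ac peak of replicate 2 lay 1214 bp from the TSS of HOXC10. No mark in both replicates was found at HOXA2, HOXB1, HOXB3, HOXB5, HOXC4, HOXC5, HOXC6 and HOXC8, of which 5 passed the threshold, HOXC6 being highest. HOXB3 passed by transcripts with other starts, as its canonical transcript was listed at 0 in both libraries. Of all 11 members without H3K4me3 in both replicates, 6 passed, against 8.63% of such protein-coding genes. Of the 27 members with it, 19 passed, against 83.6%. HOXA2, HOXB3, HOXC5, HOXC6 and HOXC8 had no peak of any mark in their windows in either replicate. The nearest H3K27ac peaks of HOXA2 lay at 1723 and 3288 bp.

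Along the chromosome, HOXA carried the widest active stretch of the 4 clusters. A single H3K4me3 peak of 20334 bp in replicate 1 (chr7:27194115-27214448) covered the canonical TSS of HOXA7, HOXA9 and HOXA10, and it was the widest of the 28615 H3K4me3 peaks of that list. In replicate 2 the same interval held 7 H3K4me3 peaks that covered 63.7% of it. An H3K27ac peak over the same 3 starts was 27446 bp wide in replicate 1, which ranked 39 of 57687 by width, and 20117 bp in replicate 2, which ranked 4 of 38554. No H3K27me3 peak fell in the interval in either replicate. The canonical TSS of HOXA3 lay 491 and 819 bp from the nearest H3K27ac peak in replicates 1 and 2, and a separate H3K27ac domain within the transcribed region of HOXA3 was 14228 bp wide in replicate 1 and 11689 bp in replicate 2, the latter ranking 20 of 38554.

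**Figure D3:**
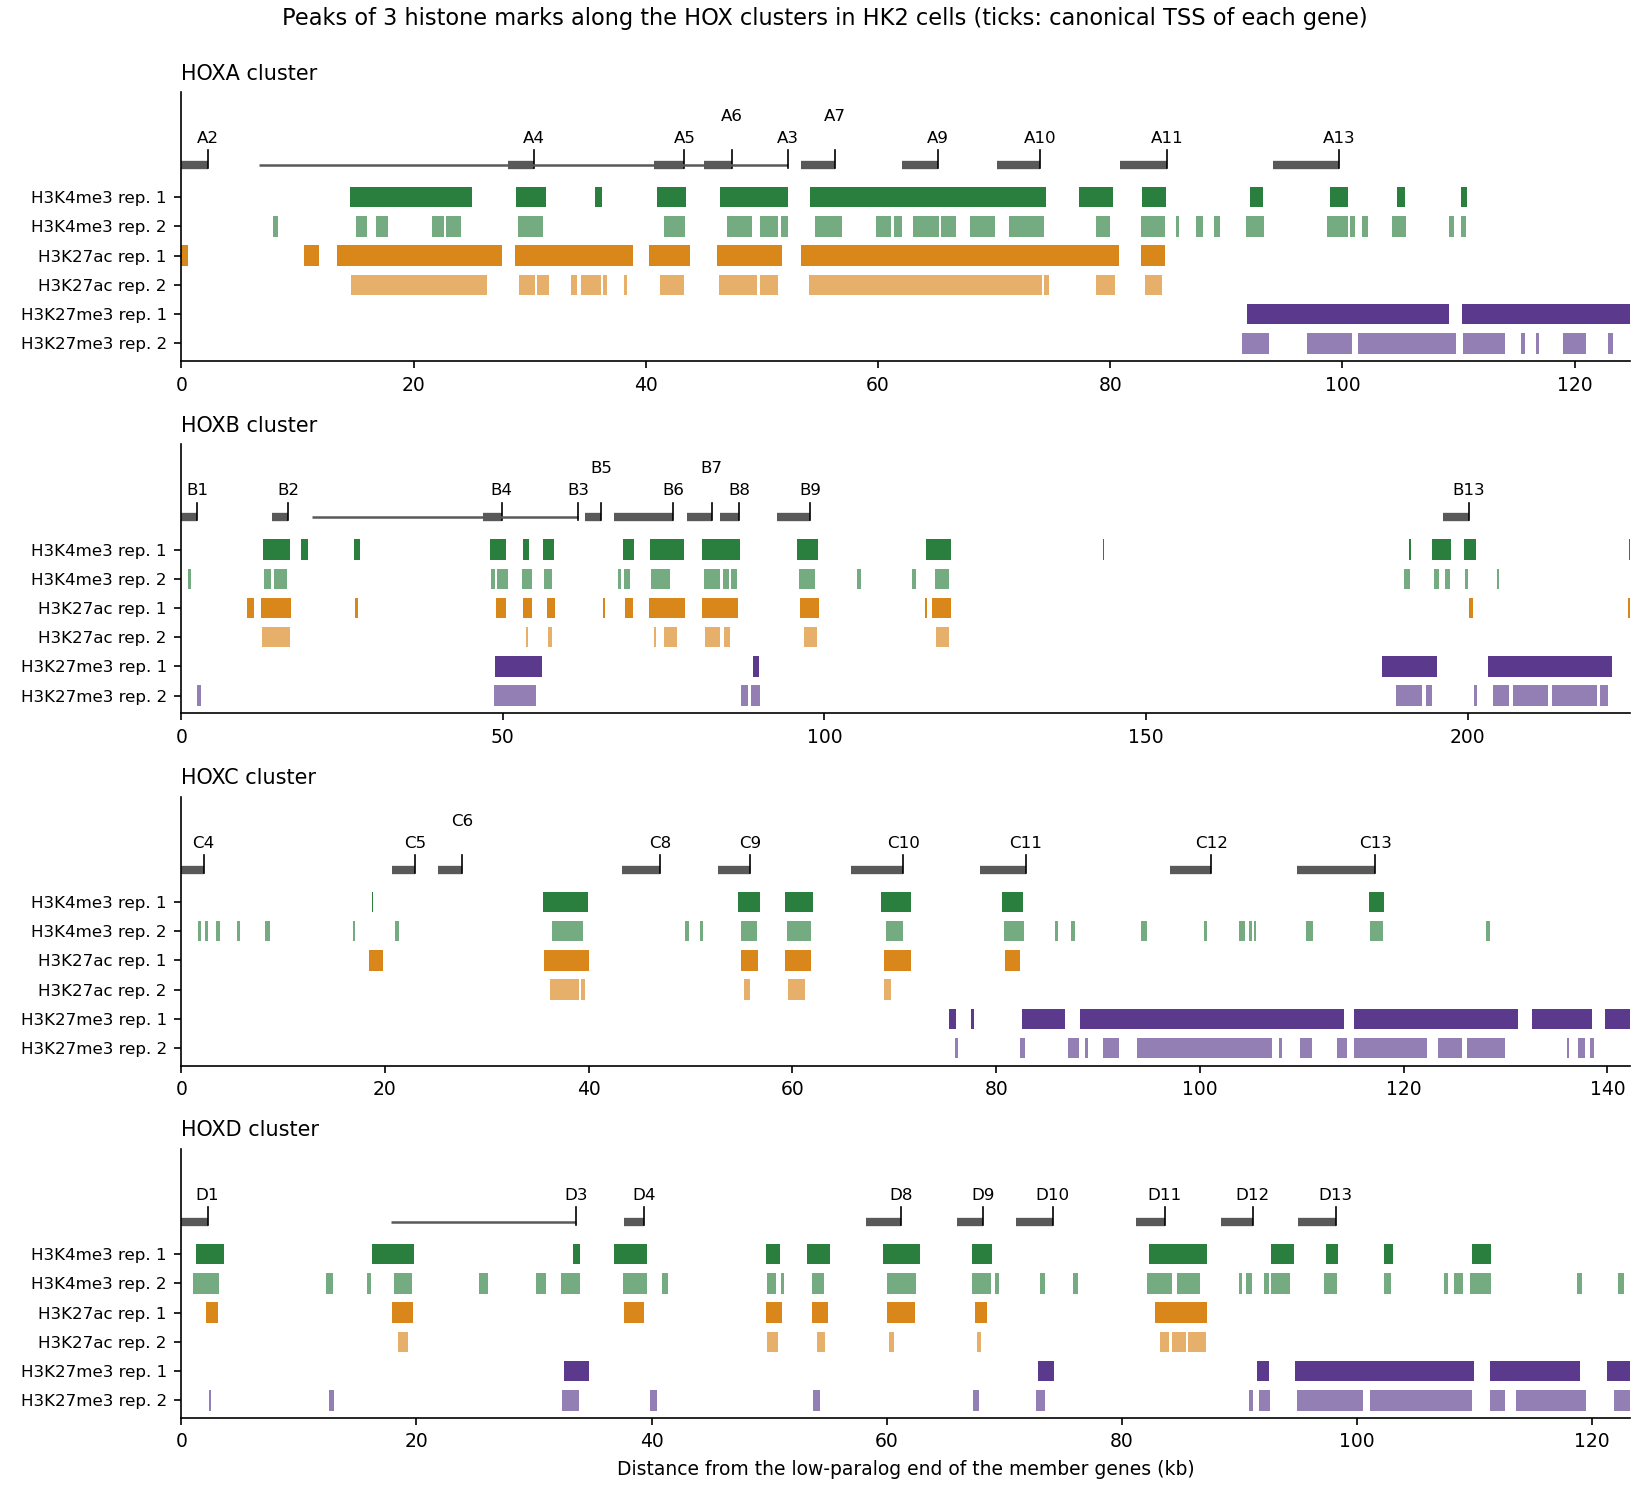
Peaks of H3K4me3 (green), H3K27ac (orange) and H3K27me3 (purple) in replicates 1 (full colour) and 2 (paler) along each HOX cluster, with the x axis in kb from the end with the lowest paralog number and each canonical transcript drawn above as a grey bar (a line where over 10 kb) with a tick at its TSS. The H3K27ac peaks of HOXA end within HOXA11, and H3K27me3 domains cover the starts of HOXA13, HOXC12, HOXC13 and HOXD13, with a separate domain at HOXB4.

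In HOXA, HOXC and HOXD, H3K27me3 lay mainly at the end with the highest paralog numbers. Stretches covered in both replicates and joined over gaps of up to 1 kb measured 12.2 kb over the TSS of HOXA13, 14.2 kb over HOXC12, 7.08 kb over HOXC13 and 14.9 kb over HOXD13, and those over HOXA13, HOXC13 and HOXD13 reached beyond the cluster. In HOXB the H3K27me3 stretches beside HOXB13, of 5.51 kb within the cluster and 17.9 kb beyond it, left out its TSS, which carried H3K4me3. A separate H3K27me3 stretch of 6.46 kb, the longest within HOXB, covered the TSS of HOXB4. Its neighbours HOXB3 and HOXB5 passed the FPKM threshold but had no mark in both replicates at their canonical TSS. The canonical transcript of HOXB3 was listed at 0 in both libraries, and its transcript with the highest mean FPKM starts 36319 bp away. A stretch of 1.23 kb covered the TSS of HOXD3. The HOXC12 peak was 25876 bp wide in replicate 1 (rank 33 of 45858) and 13225 bp in replicate 2 (rank 22 of 32639), so it was among the widest H3K27me3 peaks of both lists.

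Bases covered in both replicates by H3K27ac and by H3K27me3 were nearly separate in these clusters. Bases under both marks in both replicates numbered 0 in HOXA, HOXC and HOXD and 399 in HOXB. Single replicates held more overlap. In replicate 1, H3K27ac peaks of 1539 and 1365 bp in HOXB lay inside the H3K27me3 peak of 7385 bp over the TSS of HOXB4. In replicate 2, H3K27ac peaks of 316 and 639 bp in HOXD each overlapped an H3K27me3 peak in part. Gaps were read from the last base under H3K27ac to the next under H3K27me3 towards paralog 13, by bases covered in both replicates. The gap was 7281 bp in HOXA and held the TSS of HOXA11. It was 6279 bp in HOXC, with that of HOXC10, and 4449 bp in HOXD, with that of HOXD12. In HOXB the gap was 69518 bp and held no member's TSS. The gaps of HOXB and HOXC depend on this rule, because H3K27ac of replicate 1 alone covered the TSS of HOXB13 and of HOXC10. The gap of HOXD depends on it too, because an H3K27me3 peak of replicate 2 alone covered the TSS of HOXD12. The HOXC gap ended at small H3K27me3 peaks, of 691 bp in replicate 1 and 295 bp in replicate 2. H3K4me3 overlapped both other marks, and 88.4% of the bases under H3K4me3 in HOXA, 54.5% in HOXB, 50.2% in HOXC and 30.1% in HOXD were also under H3K27ac. Read the other way, 56.8% of the bases under H3K27ac in HOXA, 81.1% in HOXB, 91.3% in HOXC and 82.2% in HOXD were also under H3K4me3, so that HOXA was highest by the first share and lowest by the second.

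Cover by each mark set HOXA and HOXC apart. In HOXA, H3K27ac covered 65.1% of bases in replicate 1 and 47.6% in replicate 2 (47.6% in both), against 3.47% and 1.26% (1.23% in both) of the 24 chromosomes. In HOXB, HOXC and HOXD it covered 7.55%, 5.22% and 6.86% in both replicates, which were 15115, 6123 and 6732 bp. The percents of HOXB are taken over 200 kb, with a long stretch free of members between HOXB9 and HOXB13. The other clusters span 99.7 kb (HOXA), 117 kb (HOXC) and 98.2 kb (HOXD). H3K4me3 covered 30.6% of HOXA, 11.2% of HOXB, 9.49% of HOXC and 18.7% of HOXD in both replicates, against 0.729% of the 24 chromosomes. H3K27me3 covered 16.7% of HOXC, 4.69% of HOXA, 6.17% of HOXB and 6.08% of HOXD, against 0.622%. Over the 4 clusters together the cover in both replicates was 16.0% for H3K4me3, 14.6% for H3K27ac and 8.27% for H3K27me3. Cover in HOXA by H3K27ac lay above that of the other clusters in each replicate, and the same held for H3K27me3 in HOXC. Whether gene density accounts for the excess over the chromosomes was not tested.

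**Figure D4:**
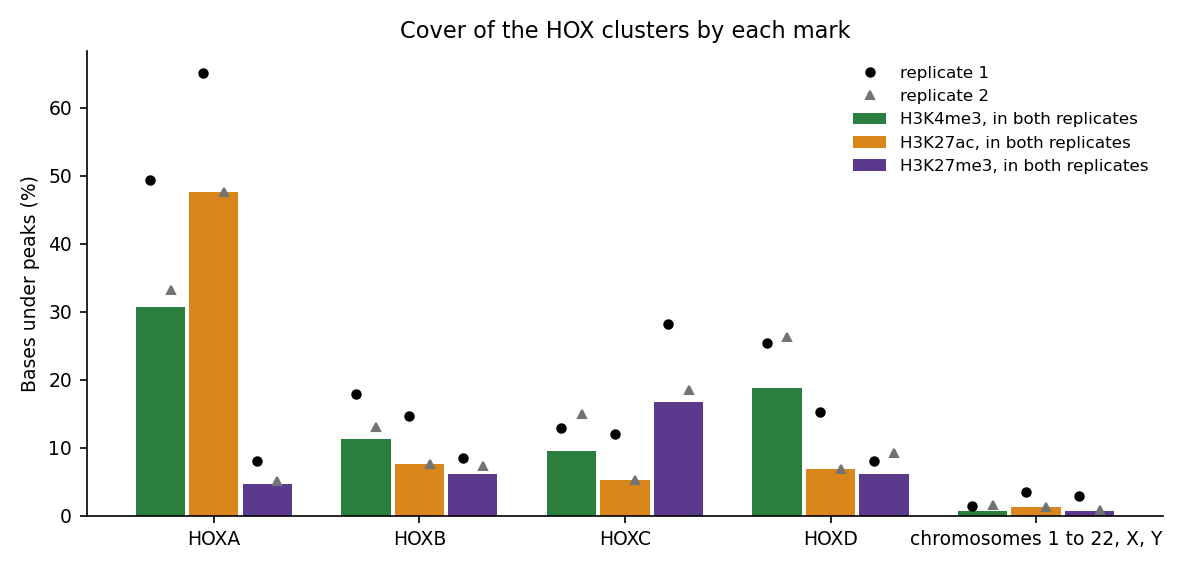
Percent of bases under peaks of each mark (y axis) in the 4 HOX clusters and in chromosomes 1 to 22, X and Y (x axis), with bars for bases covered in both replicates and points for each replicate. HOXA has the highest cover by H3K27ac and H3K4me3, and HOXC the highest by H3K27me3.

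Transcripts within a gene were used unequally, and some started far from the canonical TSS. The transcript with the highest mean FPKM was found for 35 members, and it started over 1 kb from the canonical TSS in 5 (14.3%), against 13.1% of protein-coding genes. These were HOXA3, HOXB3, HOXC6, HOXD3 and HOXD11. At HOXC6, whose canonical start carried none of the marks in both replicates, 72.6% of FPKM came from a transcript that starts 12543 bp upstream. That start had H3K4me3 over 749 and 348 bp and H3K27ac over 879 and 407 bp of its window. At HOXD11, 74.0% of FPKM came from a transcript without a defined coding sequence that starts 3064 bp upstream. The 200 bases before the upstream start of HOXC6 (chr12:54409481-54409680, plus strand) are shown because they lie at a start with both active marks. They held 5 CpG, and 78.9% of all promoters held at least as many.
HOXC6 upstream start: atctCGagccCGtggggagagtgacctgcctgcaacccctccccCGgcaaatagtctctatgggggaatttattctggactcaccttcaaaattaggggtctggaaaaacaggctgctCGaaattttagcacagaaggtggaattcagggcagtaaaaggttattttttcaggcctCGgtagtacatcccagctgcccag

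HOXA9 was divided among 3 main transcripts. A transcript without a defined coding sequence (ENST00000497089), which starts 3907 bp upstream of the canonical TSS, had an FPKM of 68.3 and 48.4, a short coding transcript (ENST00000396345) 63.9 and 59.1, and the canonical transcript 15.6 and 19.1. The transcript that encodes the canonical protein therefore held 10.2% and 14.6% of the FPKM of the gene, and the order of the other two was not the same in both libraries. HOXA5, with 2 annotated transcripts, had 98.0% and 98.8% of its FPKM in the canonical transcript. With protein-coding transcripts alone, HOXA held 69.8% of the summed FPKM and 24 members passed the threshold.

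Some differences between the libraries lay at overlapping transcripts. Exonic bases were shared with another annotated gene by 23 members, with a gene on the same strand by 18 and with a gene on the opposite strand by 17. At HOXD3, the gene AC009336.2 on the same strand shares 2206 exonic bases and had an FPKM of 0.999 and 0.036, opposite in direction to the 0.249 and 1.90 of HOXD3. At HOXA9 and HOXA10, the overlapping gene AC004080.3 had an FPKM of 20.6 and 0.579. HOXA9, which shares 397 exonic bases with it, was also lower in library 2, at 153 and 131, while HOXA10, which shares 368, was higher there, at 28.8 and 38.8. Within HOXA3 the transcript ENST00000317201 had 3.55 in library 1 and 0 in library 2 while ENST00000396352 had 0.552 and 6.43. Within HOXC9 the transcript ENST00000508190 had 2.69 and 0 and the canonical transcript 0.925 and 2.85. HOXB6 showed the same pattern, with its canonical transcript at 3.21 and 0.604 and ENST00000484302, which starts 6 bp away, at 0.589 and 3.55, while the whole gene was at 5.13 and 5.72. Read assignment among overlapping transcripts was not tested as a part of these differences. Whether the libraries kept strand is not given in the sources used here, so reads of a HOX gene and of its antisense partner cannot be told apart.

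Among noncoding RNAs of the clusters, the highest also came from HOXA. Of 24 listed, 9 passed the FPKM threshold, with a median of 0.727 over all 24 gene means. They were led by 4 RNAs of HOXA, namely HOXA10-AS at 25.4 and 25.0, HOXA-AS2 at 14.0 in both, HOTAIRM1 at 8.14 and 7.11 and HOXA-AS3 at 4.32 and 4.67. HOTTIP and HOTAIR were named after their values were seen. HOTTIP, which lies beyond HOXA13 and is known to act on posterior HOXA genes, was listed at 0 in both libraries, and HOTAIR, transcribed from HOXC and known as a Polycomb partner, at 0 and 0.066.

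Partners of HOX proteins were present in part. Of 9 TALE homeodomain cofactors, which bind DNA together with HOX proteins, 6 passed the FPKM threshold, with MEIS3 at 25.0 and 25.4, PBX3 at 21.0 and 22.9, PBX2 at 21.4 and 19.9 and MEIS2 at 7.21 and 5.74. All 27 Polycomb subunits passed it, with RBBP7 at 77.3 and 82.1, RBBP4 at 43.8 and 45.3, RING1 at 34.6 and 34.8 and PHF19 at 30.3 and 33.0. So did all 10 listed genes of H3K4 methyltransferases, their partner proteins and H3K27 demethylases, with the partner WDR5 highest at 38.1 and 38.7. Of 11 retinoic acid receptor, degradation and caudal genes, which set HOX expression in the embryo, 5 passed, with RXRB at 25.0 and 24.9 and RXRA at 13.2 and 13.2. Of 15 measured protein-coding neighbours of the clusters, 10 passed, with HNRNPA1 at 299 and 290 and CBX5 at 41.8 and 40.5, both near HOXC. The neighbours next to paralog 13, EVX1 beyond HOXA13 and EVX2 beyond HOXD13, were named after their values were seen. They were listed at 0 in both libraries and at 0.018 and 0.013, and each had H3K27me3 at its canonical TSS in both replicates.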

How the data were processed

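Of 11 HK2 samples, 8 had files: 6 peak lists (2 replicates of 3 marks) and 2 RNA-seq libraries. Input and HiChIP were not used here. Peaks were called by the authors with MACS2, separately for each replicate, from Bowtie2 alignments to hg19, and the deposited lists hold positions in bp without scores or p-values. The deposited FPKM and TPM values of annotated transcripts were estimated by the authors with StringTie 1.3.3 on GENCODE 27 after HISAT2 alignment. The coordinates in these files are those of GRCh38, whereas the methods name hg19, so RNA and peaks were joined by Ensembl gene ID only.

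FPKM were summed over the transcripts of a gene. Canonical TSS came from GENCODE 44 on GRCh37, and a promoter was marked where a peak in both replicates overlapped the window of 1000 bp on either side. A gene counted as expressed where both libraries had an FPKM of 1 or more, and log2 values used a pseudocount of 1. Promoter sequences were read from the GRCh37 genome. Interval functions were tested on simulated data. With 1 condition no group test was made, and members are described beside all 19547 protein-coding genes. Members, gene lists and rules were chosen with earlier results of these data known. All members could be named, of each list the members expressed in both libraries (at most the 4 highest), and exceptions are stated. 1 further gene whose name fits the rule, and the promoter sequences of some members, are not reported here. Python 3.11.15, pandas 2.3.3, numpy 2.4.6, pysam 0.24.0, samtools 1.23.1 and matplotlib 3.10.9 were used.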

Additional observations from a re-analysis of the deposited data

How the results depend on the processing

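Of 76 alternative values, 55 stayed within 1.5 times the reported count or within 1 SD between replicates and 21 moved further. The count of 25 members at an FPKM of at least 1 became 12 at a threshold of 5 and was 25 to 26 with a library left out. The median log2(FPKM + 1) of 1.69 became 1.21 with a pseudocount of 0.1, 2.84 with TPM, 1.98 over members with a mean FPKM of at least 0.1, and 1.71 to 1.77 with a library left out. With transcripts annotated as protein-coding in GENCODE 44 only, the shares of summed FPKM were 69.8% in HOXA, 17.7% in HOXB, 5.97% in HOXC and 6.55% in HOXD, which narrows the lead of HOXD over HOXC. The 9 members with H3K27me3 became 15 with a peak in either replicate and 9 to 15 with a replicate left out, 15 being the count without replicate 1. The members with H3K27me3 that were expressed rose in number from 1 to 2 with any annotated TSS and to 4 with a peak in either replicate. Cover of the clusters with peaks of either replicate was 28.1% for H3K4me3, 23.96% for H3K27ac and 14.3% for H3K27me3. With a replicate left out it was 19.9% to 24.2%, 14.6% to 23.96% and 9.76% to 12.8%, the highest values being those without replicate 2. Clusters extended by 10 kb on each side had 12.7% under H3K27me3. The cause of these changes was not tested beyond what each alternative itself changes. The start of the main transcript, an alternative chosen after seeing the data, gave 26 members with H3K4me3, 17 with H3K27ac and 8 with H3K27me3, with 3 genes left at their canonical TSS because none of their transcripts had both an FPKM above 0 and a start in GENCODE 44. Over the 35 members with a main transcript, the shares were 71.4% for H3K4me3, 48.6% for H3K27ac and 17.1% for H3K27me3. Over the 15666 protein-coding genes with a main transcript they were 77.4%, 60.6% and 6.52%. The H3K4me3 share of members was thus below that of all genes at these starts. With any annotated TSS, 31 members had H3K4me3 and 22 had H3K27ac, and the share over all genes was not computed for this setting. No paired analysis was possible because all samples are of 1 condition and no result comes from a test between groups. 2 replicates, peak lists without scores and transcripts that share exons limit how finely levels and marks can be ranked.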
